A study of Homo sapiens with 6 samples.

Results

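The keratin gene family was examined in U251, an established human glioblastoma line, with and without overexpressed PD-L1. Members were all protein-coding genes whose symbol is KRT, a number and at most one trailing capital letter, which excluded keratin-associated proteins and pseudogenes. There were 55 such genes among 57773 genes of the count table, 29 of type I and 26 of type II. Poly-A RNA came from 3 dishes of U251 cells carrying a lentiviral PD-L1 construct (CD274) and from 3 dishes of U251 cells carrying the lentiviral vector alone. All dishes held stable lines at passage 5 to 10 and were harvested 12 h after passaging in DMEM containing 10% fetal bovine serum. The labels name 1 stable line per group, and no separate transductions, so the spread behind each p-value is that of dishes, which may be technical. The construct's promoter is not stated in the labels.

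Keratins are the intermediate filament proteins of epithelial cells. A filament forms only when an acidic type I keratin pairs with a basic type II keratin, and particular partners are used in particular epithelia: KRT8 with KRT18 in simple epithelia, KRT5 with KRT14 in the basal layer of stratified epithelia, KRT6 isoforms with KRT16 and KRT17 in wounded or hyperproliferative epidermis, and a separate set of hard keratins in hair. Glial cells are known for other intermediate filaments, chiefly GFAP, vimentin and nestin, but cultured glioma lines can carry keratin transcripts as well. In the human genome, the type II genes and the type I gene KRT18 lie on chromosome 12, and the other type I genes lie on chromosome 17.

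Several keratins have near-identical copies, and this bears on how far their counts can be separated. The coding sequences of KRT6A and KRT6B were 97.5% identical, those of KRT6A and KRT6C 97.9%, and those of KRT6B and KRT6C 98.5%. These genes lie on chromosome 12. The hair keratins KRT81, KRT86 and KRT83, also on chromosome 12, are a looser family. KRT81 was 92.9% identical to KRT86 and 92.8% identical to KRT83 over aligned coding bases. The type I keratins KRT14, KRT16 and KRT17, on chromosome 17, are less alike. KRT14 was 87.6% identical to KRT16 and 83.8% identical to KRT17.

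The shares of each transcript that occur unchanged elsewhere were counted in windows of 100 bases. For KRT6C it was 31.74%, for KRT81 30.33%, for KRT86 27.95%, for KRT6B 24.64% and for KRT6A 18.23%. It was 7.18% for KRT16, 5.95% for KRT14 and 5.92% for KRT8, whose matches are processed pseudogenes. KRT222 shared 56.48% with ENSG00000264058, an overlapping transcript on the same strand, so its reads cannot be assigned with certainty. KRT8, KRT18, KRT13 and KRT75 overlap exons of a gene on the opposite strand, over 7.63, 16.31, 16.34 and 9.51% of their exonic bases, and the library kit does not mark strand. KRT86 overlaps exons of other genes on both strands over 8.6% of its exonic bases.

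Total counts were 15678989 to 19704409 per PD-L1 dish and 18797948 to 22270509 per Vector dish. CD274, the targeted gene, had 22001 to 26827 reads in PD-L1 dishes and 34 to 71 in Vector dishes, as the labels say. A count of 3 corresponds to 0.138 to 0.185 CPM, the unit used for levels, which scales counts to library size with TMM factors. This floor covers counting error only. Across the genome, 1384 of 15818 tested genes, or 8.75%, were called at a 0.05 false discovery rate (FDR) with edgeR's quasi-likelihood test. Within the PD-L1 group, dish 3 stood apart from the other dishes.

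Reads fell on most keratin genes, and 1 gene, KRT81, held about as many as all the others. Of the 55 genes, 47 had at least 1 read and 28 had at least 10 reads over the 6 dishes. Keratin reads were 0.106, 0.111 and 0.157% of all counts for PD-L1 dishes 1 to 3, against 0.226, 0.225 and 0.191% in Vector dishes 1 to 3. Their summed level was 1233 ± 323 CPM in PD-L1 dishes and 2186 ± 217 CPM in Vector dishes (SD, n = 3 each), and the groups did not overlap. KRT81, a hair cortex keratin, held 42.6, 48.7 and 53.3% of keratin reads in PD-L1 dishes 1 to 3, against 57.6, 57.5 and 54.6% in Vector dishes 1 to 3. Without KRT81 the summed level was 629 ± 106 CPM in PD-L1 dishes and 948 ± 59.6 CPM in Vector dishes. A lower level in bulk RNA can mean fewer cells with the transcript or less of it per cell, and these cannot be told apart here.

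**Figure D1:**
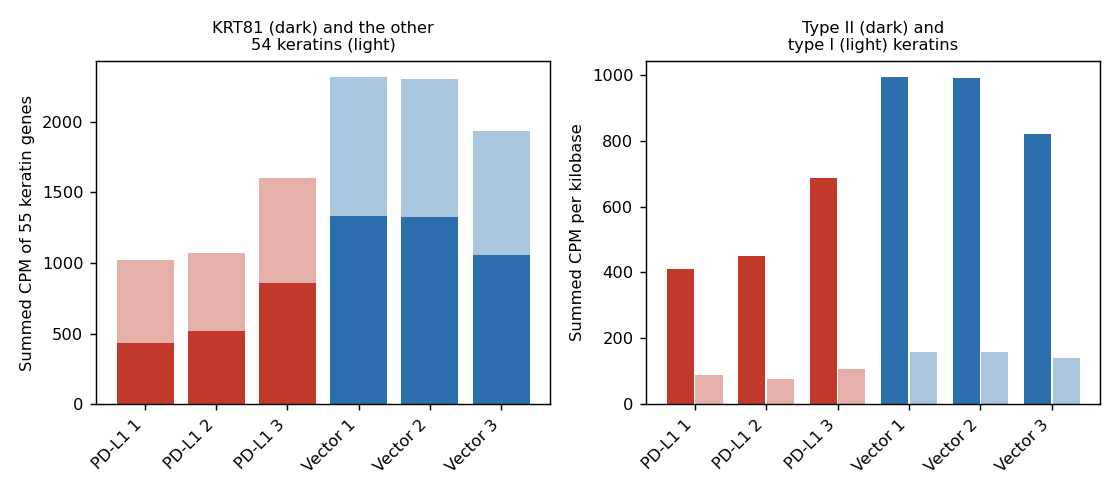
Left, summed CPM of all 55 keratin genes in each dish, with KRT81 as the dark part and the other 54 genes as the light part. Right, summed CPM per kilobase of type II (dark) and type I (light) keratins; PD-L1 dishes are red and Vector dishes blue. For each type, every PD-L1 sum lies below every Vector sum.

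Type II transcripts outnumbered type I transcripts in every dish. Per kilobase of transcript, the ratio of summed type II to summed type I levels was 4.61, 5.95 and 6.50 in PD-L1 dishes 1 to 3. In Vector dishes 1 to 3 it was 6.23, 6.24 and 5.82, so the groups overlapped. Leaving out KRT81 gave ratios of 2.07, 2.37 and 2.30 in PD-L1 dishes and of 1.89, 1.91 and 1.93 in Vector dishes. Type II thus exceeded type I without KRT81 as well, and on that scale every PD-L1 dish lay above every Vector dish. The largest part of the remaining type II level was KRT8, at 138 CPM per kilobase in PD-L1 dishes and 157 in Vector dishes. All type I keratins together averaged 90.0 and 153 CPM per kilobase. The summed type II level averaged 515 CPM per kilobase in PD-L1 dishes and 934 in Vector dishes, of which KRT81 made up 313 and 642. What remained of type II without KRT81 and KRT8 was less than the type I sum in each group. The mean excess of type II thus rested on KRT81 and KRT8, and no excess was seen across the other type II genes.

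The order of the keratins by level per kilobase was led by KRT81 and KRT8 in both groups. In PD-L1 dishes KRT81 averaged 313 CPM per kilobase and KRT8 138, followed by KRT14 at 37.0, KRT6A at 30.7 and KRT10 at 27.9. In Vector dishes KRT81 averaged 642 CPM per kilobase and KRT8 157, followed by KRT14 at 87.4, KRT6A at 72.3 and KRT10 at 28.7. In the Vector dishes the neighbours among these 5 genes did not overlap, while in the PD-L1 dishes KRT14, KRT6A and KRT10 overlapped one another in turn. KRT75 followed at 13.6 CPM per kilobase in PD-L1 dishes and 27.0 in Vector dishes, and KRT80 at 8.72 and 15.7. In Vector dishes KRT16, KRT18, KRT6B, KRT5 and KRT17, between 7.41 and 10.5 CPM per kilobase, each overlapped the next in the order. KRT86, KRT4, KRT19 and KRT222 stood last in both groups, each at 1.47 CPM per kilobase or less. The level of KRT15 rests on an annotated transcript of 5237 bases, the longest of the tested members, which lowers its value on this scale.

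Of the 55 keratins, 18 passed the low-count filter and 37 did not. Among the 18, 9 were lower in PD-L1 dishes and 0 were higher at an FDR of 0.05. Over all genes tested, 8.75% were called in either direction, with 7.2% lower and 1.55% higher. The median log2 fold change, PD-L1 minus Vector, was -0.79 over the 18 keratins and 0.018 over all genes tested. Of the 18, 17 exceeded the filter's 0.516 CPM in every dish, and KRT19 did so in every dish but PD-L1 dish 2. In 11 of the 18 genes every PD-L1 dish lay below every Vector dish, against 15.5% of all genes tested, and in 1, KRT222, every PD-L1 dish lay above, against 12.1%. With any 1 dish left out, 6 to 12 keratins were called lower, and KRT6A, KRT14, KRT80, KRT6B, KRT16 and KRT86 were called in all 6 of those fits.

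**Figure D2:**
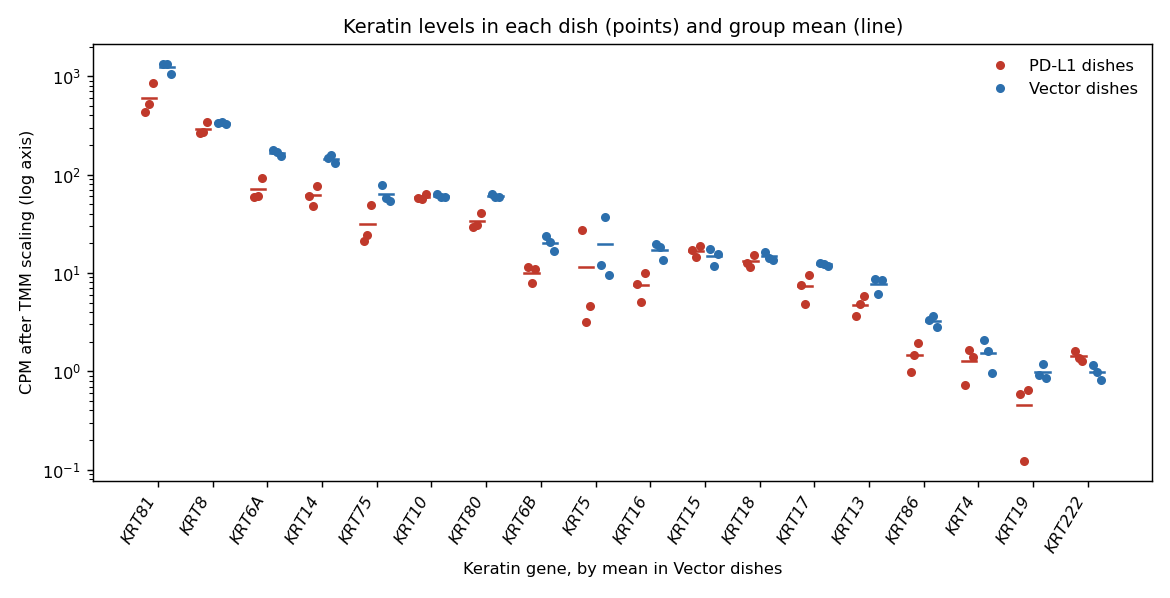
CPM after TMM scaling on a log axis for the 18 keratins that passed the low-count filter, ordered by their mean in Vector dishes. Each point is a dish (PD-L1 red, Vector blue) and each line a group mean; KRT81 lies between 435 and 856 CPM in PD-L1 dishes and between 1057 and 1334 CPM in Vector dishes.

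Both tested hair keratins fell, against 7.2% lower over all genes tested. KRT81 (ENSG00000205426) had 435, 522 and 856 CPM in PD-L1 dishes 1 to 3, against 1334, 1326 and 1057 CPM in Vector dishes 1 to 3. PD-L1 dish 3 was the highest of its group and Vector dish 3 the lowest of its own, and the groups did not overlap. KRT81 was 2.05-fold lower, with a log2 fold change of -1.04 ± 0.24 (SE) and an adjusted p of 0.0366 in edgeR. That call ended without PD-L1 dish 2 (adjusted p = 0.226 in edgeR) and without Vector dish 3 (0.0582). By CPM, KRT81 ranked 275, 208 and 118 among all genes in PD-L1 dishes 1 to 3, against 59, 61 and 82 in Vector dishes 1 to 3. KRT86, which is 92.9% identical to KRT81 over coding bases, had 20, 24 and 36 reads in PD-L1 dishes and 72, 74 and 53 reads in Vector dishes. It was 2.25-fold lower, with an adjusted p of 0.00855 in edgeR. Of its 100-base windows, 27.95% occur in other genes, KRT81 among them, and KRT81 had 8471 to 28978 reads per dish. How many of the KRT86 reads came from KRT81 transcripts was not tested, so the falls of KRT81 and KRT86 may not be separate.

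When the reads of KRT81, KRT86, KRT83 and the transcribed pseudogene KRT87P were summed before the fit, an alternative chosen after the data were seen, the family had a log2 fold change of -1.03 ± 0.24 (adjusted p = 0.0373 in edgeR). KRT83 itself had 5 reads in total and KRT87P 591. The other hair keratins were scarce and were not tested. KRT85, a matrix and cortex keratin, had 1, 0 and 1 reads in PD-L1 dishes 1 to 3, against 9, 11 and 4 in Vector dishes. KRT82, a cuticle keratin, had 1, 0 and 0 reads in PD-L1 dishes and 4, 4 and 7 in Vector dishes. KRT32, a type I cuticle keratin, had 0, 1 and 0 reads in PD-L1 dishes and 8, 2 and 4 in Vector dishes. At 0 or 1 read per PD-L1 dish these counts lie under the floor of 3, and no fold is given. The type I cortex keratins were nearly absent, with 1 read for KRT31, 7 for KRT33B and 9 for KRT34 over the 6 dishes, and 0 for KRT33A, KRT35, KRT36 and KRT38. KRT81 transcripts were thus found with hardly any type I hair keratin transcripts.

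KRT75, a type II keratin of the companion layer of the hair follicle, had 21.2, 24.5 and 49.2 CPM in PD-L1 dishes 1 to 3. It had 77.5, 57.1 and 53.4 CPM in Vector dishes 1 to 3. The groups did not overlap, but PD-L1 dish 3 came close to Vector dish 3. The log2 fold change was -0.99 ± 0.36 with an adjusted p of 0.185 in edgeR, and the gene was called without PD-L1 dish 3, with an adjusted p of 0.00541. The follicle keratins KRT25 to KRT28 and KRT71 to KRT74 had at most 7 reads each.

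The keratins of wounded and hyperproliferative epidermis fell together in all 4 tested members, against 7.2% lower over all genes tested. KRT6A (ENSG00000205420), a type II keratin induced in wounds, had 1225, 974 and 1730 reads in PD-L1 dishes 1 to 3, against 3827, 3497 and 2863 reads in Vector dishes 1 to 3. Each PD-L1 dish was well under the lowest Vector dish, and PD-L1 dish 3 was again the highest of its group. KRT6A averaged 70.8 ± 18.9 CPM in PD-L1 dishes and 167 ± 11.5 CPM in Vector dishes (SD, n = 3 each), a 2.36-fold decrease with an adjusted p of 7.82e-04 in edgeR. KRT6B averaged 10.1 ± 1.96 CPM in PD-L1 dishes and 20.3 ± 3.32 CPM in Vector dishes, a log2 fold change of -1.01 ± 0.15. With KRT6A, KRT6B and KRT6C summed, the log2 fold change was -1.21 ± 0.14, and this sum does not depend on how reads were split among the copies.

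KRT16, a type I partner of the KRT6 proteins, had 7.76, 5.05 and 9.96 CPM in PD-L1 dishes 1 to 3, against 19.8, 18.2 and 13.6 CPM in Vector dishes 1 to 3. It was 2.26-fold lower with an adjusted p of 0.00363 in edgeR. KRT17, a type I keratin of appendages and of wounded skin, averaged 7.30 ± 2.29 CPM in PD-L1 dishes and 12.2 ± 0.50 CPM in Vector dishes. Its decrease was smaller, with a log2 fold change of -0.74 ± 0.18 and an adjusted p of 0.0203 in edgeR, and it missed the threshold in 4 of the 6 fits that left out 1 dish, namely PD-L1 dish 1 or 2 and Vector dish 1 or 2 (adjusted p of 0.0527 to 0.0963).

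**Figure D3:**
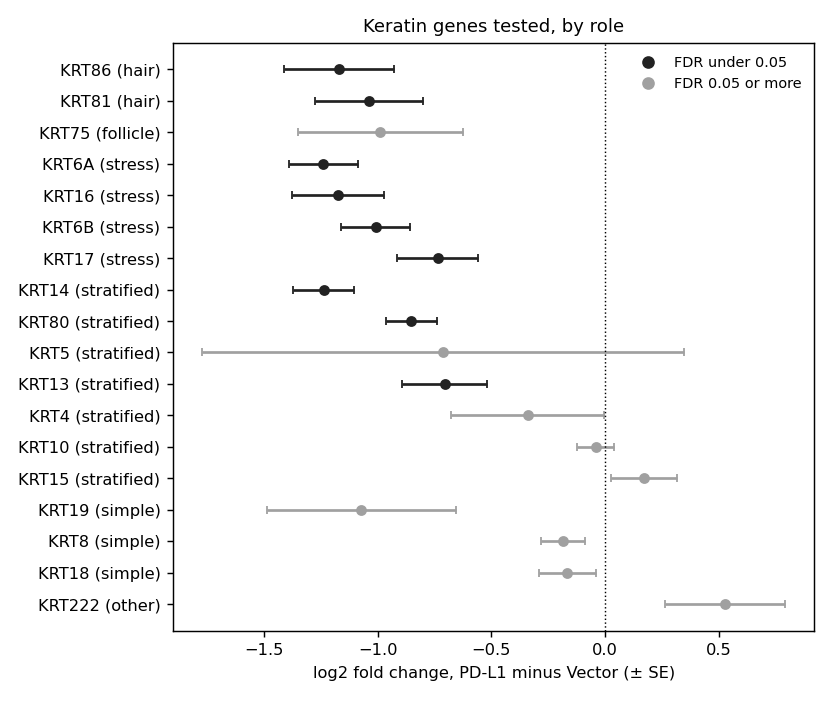
Log2 fold change, PD-L1 minus Vector, with its standard error for the 18 tested keratins, grouped by role; black points passed an FDR of 0.05 in edgeR and grey points did not. The 2 hair keratins and the 4 stress keratins lie between -1.24 and -0.74, while the simple keratins KRT8 and KRT18 lie at -0.18 and -0.17.

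Keratins of stratified epithelia did not move as one group. Of 7 tested members 3 fell and 0 rose, against 7.2% lower and 1.55% higher over all genes tested. KRT14 (ENSG00000186847), the basal type I keratin, had 61.1, 48.0 and 75.6 CPM in PD-L1 dishes 1 to 3, against 147, 158 and 131 CPM in Vector dishes 1 to 3. The lowest Vector dish stood clearly above the highest PD-L1 dish. KRT14 averaged 61.6 ± 13.8 CPM in PD-L1 dishes and 145 ± 13.6 CPM in Vector dishes, 2.36-fold lower with an adjusted p of 1.77e-04 in edgeR. Summing KRT14, KRT16 and KRT17 gave a log2 fold change of -1.19 ± 0.15.

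KRT80, an epithelial type II keratin, had 29.1, 30.7 and 41.1 CPM in PD-L1 dishes 1 to 3, against 63.5, 59.7 and 58.8 CPM in Vector dishes 1 to 3. The Vector dishes were close to one another, and all stood above the PD-L1 dishes. KRT80 fell, with a log2 fold change of -0.85 ± 0.11 and an adjusted p of 5.32e-04 in edgeR, and only 0.42% of its 50-base windows occur in another gene. KRT13, a type I keratin of mucosal epithelia, averaged 4.77 ± 1.06 CPM in PD-L1 dishes and 7.75 ± 1.43 CPM in Vector dishes. It was 1.63-fold lower with an adjusted p of 0.0314 in edgeR, and missed the threshold when either of PD-L1 dishes 1 and 2 or either of Vector dishes 1 and 3 was left out (adjusted p of 0.0721 to 0.163). KRT4, the mucosal type II partner of KRT13, averaged 1.26 ± 0.48 CPM in PD-L1 dishes and 1.55 ± 0.55 CPM in Vector dishes, with an adjusted p of 0.580 in edgeR.

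KRT10, the type I keratin of differentiating epidermis, was steady across the dishes. It had 57.8, 56.3 and 63.7 CPM in PD-L1 dishes 1 to 3, against 63.8, 59.6 and 59.5 CPM in Vector dishes 1 to 3, and the groups overlapped. Its log2 fold change was -0.04 ± 0.08 with an adjusted p of 0.800 in edgeR. Transcripts of KRT1, its usual type II partner, were not detected, with 0 reads in each of the 6 dishes. KRT15, a basal and stem cell keratin, averaged 16.8 ± 2.13 CPM in PD-L1 dishes and 14.9 ± 3.01 CPM in Vector dishes, with a log2 fold change of 0.17 ± 0.14 and an adjusted p of 0.512 in edgeR. KRT78 and KRT9, with 60 and 55 reads in total, did not pass the filter, nor did KRT3 and KRT79 with 20 and 18.

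KRT5 (ENSG00000186081), the basal type II partner of KRT14, split the dishes across the groups. It had 554, 52 and 86 reads in PD-L1 dishes 1 to 3, against 264, 750 and 179 in Vector dishes 1 to 3. PD-L1 dish 1 and Vector dish 2 were high, and the other 4 dishes were lower. The log2 fold change was -0.71 ± 1.06 with an adjusted p of 0.747 in edgeR, and the sign turned without Vector dish 2 (0.12). The ratio of KRT14 to KRT5 per kilobase was 3.44, 22.8 and 25.0 in PD-L1 dishes 1 to 3 and 18.4, 6.55 and 20.7 in Vector dishes 1 to 3. Among 17520 genes with at least 30 reads, KRT5 had the second largest standard deviation of log2(CPM + 0.5) over the 6 dishes, 1.31. KRT6C, which shares windows of 100 bases with KRT5 as well as with KRT6A and KRT6B, had 15, 0 and 0 reads in PD-L1 dishes 1 to 3 and 3, 25 and 0 in Vector dishes 1 to 3.

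**Figure D4:**
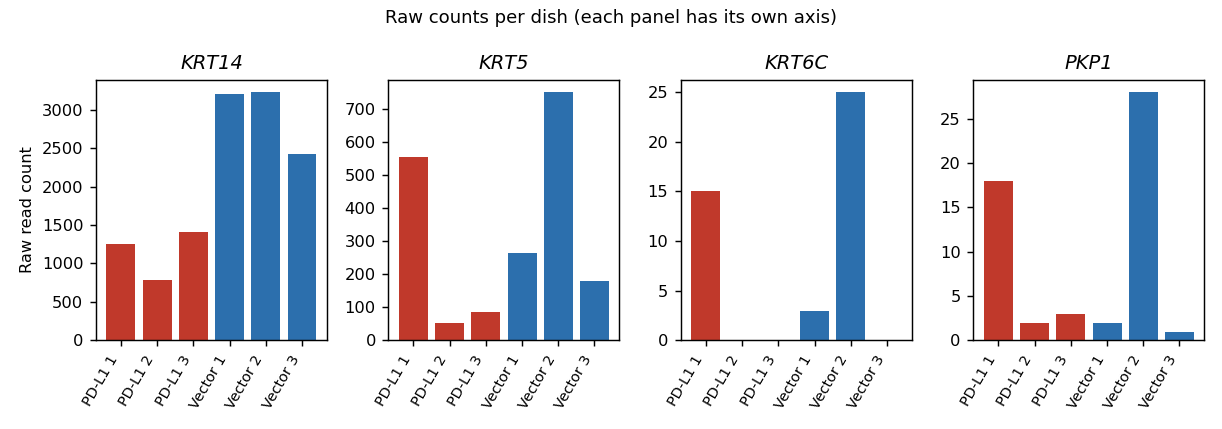
Raw read counts in each dish for KRT14, KRT5, KRT6C and PKP1, the desmosomal protein plakophilin-1, with a separate linear axis for each gene (PD-L1 dishes red, Vector dishes blue). KRT14 separates the groups, whereas KRT5, KRT6C and PKP1 are highest in PD-L1 dish 1 and Vector dish 2.

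Of 3 tested keratins of simple epithelia 0 were called, against 8.75% of all genes tested. Their log2 fold changes were -0.18 for KRT8, -0.17 for KRT18 and -1.07 for KRT19. KRT8 (ENSG00000170421) had 263, 272 and 345 CPM in PD-L1 dishes 1 to 3, against 333, 343 and 324 CPM in Vector dishes 1 to 3. PD-L1 dishes 1 and 2 lay below all Vector dishes, but PD-L1 dish 3 lay above them. KRT8 averaged 293 ± 44.9 CPM in PD-L1 dishes and 333 ± 9.30 CPM in Vector dishes, with a log2 fold change of -0.18 ± 0.10 and an adjusted p of 0.266 in edgeR. Without PD-L1 dish 3 it was called lower, with a log2 fold change of -0.32 and an adjusted p of 9.82e-04. KRT18, its type I partner, averaged 13.1 ± 1.94 CPM in PD-L1 dishes and 14.7 ± 1.38 CPM in Vector dishes, with an adjusted p of 0.458 in edgeR.

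KRT8 stood far above its partner KRT18 in all dishes. The ratio of KRT8 to KRT18 per kilobase was 15.3, 17.5 and 16.6 in PD-L1 dishes 1 to 3 and 15.0, 17.7 and 17.4 in Vector dishes 1 to 3. KRT18 shares 31.8% and KRT8 32.7% of their 50-base windows with other genes, mainly processed pseudogenes. KRT8 and KRT18 also overlap each other on opposite strands, over 7.63% of the exonic bases of KRT8 and 16.31% of those of KRT18. What the shared windows and the overlap do to the ratio was not tested. KRT19, a type I keratin of ducts and simple epithelia, had 12, 2 and 12 reads in PD-L1 dishes and 20, 24 and 16 reads in Vector dishes, with an adjusted p of 0.132 in edgeR (0.0425 without PD-L1 dish 3). KRT7 and KRT23 had 41 and 22 reads in total, and the intestinal keratin KRT20 had 9. KRT222, a keratin-like gene of the type I cluster, had 33, 22 and 24 reads in PD-L1 dishes and 25, 20 and 15 reads in Vector dishes, with a log2 fold change of 0.53 ± 0.26 and an adjusted p of 0.247 in edgeR.

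Of the 9 keratins that fell, 8 had PD-L1 dish 3 as the highest of their PD-L1 dishes, and 8 had Vector dish 3 as the lowest of their Vector dishes. How often this held for other genes was not counted. Across genes, chi-square per degree of freedom was 14.6 and 13.6 for PD-L1 dish 3 against dishes 1 and 2, and 2.84 between those. Keratin genes of both chromosomes were among the 9, with 5 of 10 tested genes on chromosome 12 and 4 of 8 on chromosome 17 lower. The share lower over all genes tested was 7.2%. The 5 on chromosome 12 include KRT6A and KRT6B, and KRT81 and KRT86, which share sequence. The genes that fell were not all neighbours: in the RefSeq gene order, KRT15 and KRT19, which were not called, lie between KRT13 and KRT14, which were.

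Pseudogenes of keratins added few reads. The 148 pseudogenes in the table held 1657 reads over the 6 dishes, against 36525 for KRT8 alone. KRT8P12 had 86, 95 and 86 reads in PD-L1 dishes 1 to 3 and 99, 114 and 76 in Vector dishes 1 to 3, with a log2 fold change of 0.03 ± 0.18. KRT87P, a hair keratin pseudogene, had 46, 54 and 100 reads in PD-L1 dishes and 170, 134 and 87 in Vector dishes, with an adjusted p of 0.0832 in edgeR.

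Genes that anchor keratin filaments at the membrane fell in part. Of 22 genes of desmosomes and hemidesmosomes 16 were tested, 5 fell and 0 rose, against 7.2% lower and 1.55% higher over all genes tested. The list's median log2 fold change was -0.036. All 5 are genes of hemidesmosomes, the junctions that tie keratin to the basement membrane, while DST, another hemidesmosomal linker, had -0.16 and was not called. PLEC, the linker protein plectin, averaged 290 CPM in PD-L1 dishes and 559 CPM in Vector dishes, with a log2 fold change of -0.95 ± 0.09. ITGB4 and ITGA6, the hemidesmosomal integrin chains, had log2 fold changes of -0.93 ± 0.09 and -0.83 ± 0.08. COL17A1, a transmembrane collagen of these junctions, had -0.90 ± 0.14 and the tetraspanin CD151 -0.41 ± 0.11. Among desmosomal genes, the plaque protein DSP had a log2 fold change of 0.10, the desmoglein DSG2 -0.08 and the plaque protein JUP 0.03, with adjusted p of 0.589, 0.613 and 0.886 in edgeR, examples chosen after their values were seen. PKP3 (plakophilin-3) had -0.51 and the desmocollin DSC3 0.33, with adjusted p of 0.105 and 0.0767 in edgeR, and neither was called. The difference between both kinds of junction was not tested.

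**Figure D5:**
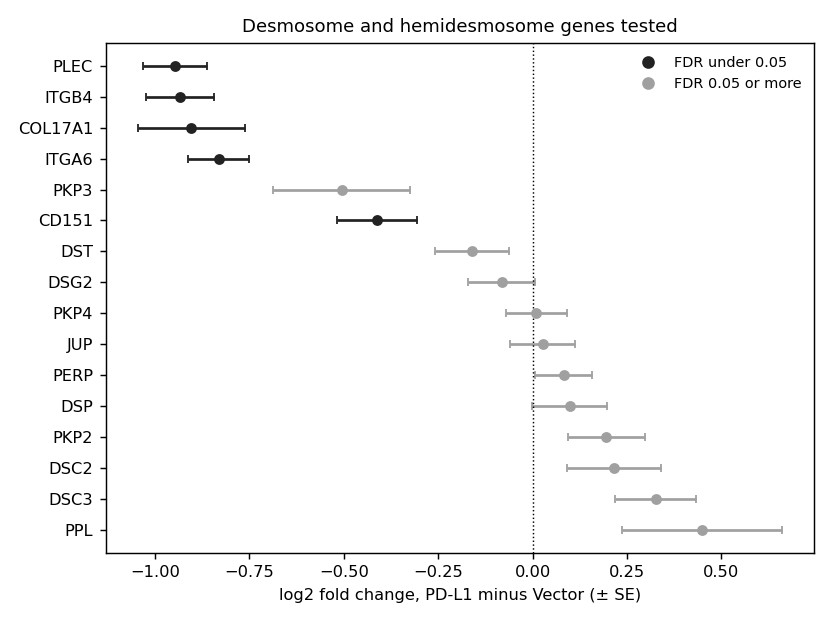
Log2 fold change, PD-L1 minus Vector, with its standard error for the 16 tested genes of desmosomes and hemidesmosomes; black points passed an FDR of 0.05 in edgeR. The 5 genes that passed, PLEC, ITGB4, COL17A1, ITGA6 and CD151, lie between -0.95 and -0.41.

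In a list of keratin-binding and keratin-regulating proteins 17 of 18 genes were tested, 2 fell and 0 rose, against 7.2% lower and 1.55% higher over all genes tested, so the count was near that background. SFN (14-3-3 sigma, which binds keratins in keratinocytes) had 22.2, 22.6 and 38.8 CPM in PD-L1 dishes 1 to 3, against 55.8, 54.5 and 45.4 CPM in Vector dishes 1 to 3, with an adjusted p of 0.0275 in edgeR. The groups did not overlap, and dish 3 was again the highest PD-L1 dish and the lowest Vector dish. TRADD, an adaptor of TNF receptor signalling reported to bind KRT18, had a log2 fold change of -0.42 ± 0.12. The abundant 14-3-3 genes YWHAE and YWHAZ had log2 fold changes of 0.03 and -0.06. The median of the list was -0.01, and 0 to 2 of its genes were called lower with 1 dish left out.

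Of 23 transcription factors known to act on keratin genes 19 were tested, 4 fell and 0 rose, against 7.2% lower over all genes tested. Leaving out PD-L1 dish 2 lowered the count to 2, as did leaving out Vector dish 1. The list's median log2 fold change was -0.22. FOSL1 and FOSL2, AP-1 subunits, had log2 fold changes of -1.04 ± 0.21 and -0.81 ± 0.12 (adjusted p = 0.0166 and 9.40e-04 in edgeR). RARA, a retinoic acid receptor, had -0.51 ± 0.11 and TFAP2C, an AP-2 factor, -0.51 ± 0.15. JUN and SP1, the most abundant members, had -0.03 and 0.06. TP63, the regulator of stratified epithelia, had 16, 5 and 10 reads in PD-L1 dishes and 15, 22 and 18 reads in Vector dishes, with an adjusted p of 0.275 in edgeR.

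Other intermediate filament genes also fell in part. Of 11 tested genes 6 were lower and 0 higher, against 7.2% lower over all genes tested, and the median log2 fold change was -0.57. These were VIM at -0.70 ± 0.10, NES at -0.64 ± 0.12, GFAP at -0.91 ± 0.21, SYNM (synemin) at -0.61 ± 0.12, and the lamins LMNA and LMNB2 at -0.79 ± 0.11 and -0.28 ± 0.08. VIM averaged 241 CPM in PD-L1 dishes and 391 CPM in Vector dishes, so KRT81 exceeded vimentin by CPM in both groups.

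Most markers of the cell types in which keratins are typical were low. Of 20 epithelial markers all had a read, 14 were tested, and 0 were called in edgeR, against 8.75% of all genes tested. The count was near that background. EPCAM had 42 reads in total and CLDN3 had 1, and CDH1 averaged 2.05 CPM in PD-L1 dishes and 2.03 CPM in Vector dishes. The most abundant, CDS1 and OCLN, had log2 fold changes of 0.09 and 0.16. The summed level of the list was 68.8 to 71.0 CPM in PD-L1 dishes and 59.1 to 69.9 CPM in Vector dishes.

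Of 19 keratinocyte and cornified envelope markers 6 were tested, 1 fell and 1 rose, against 7.2% lower and 1.55% higher over all genes tested. SFN fell, and FLG (filaggrin) stood at -0.50 on the log2 scale (adjusted p = 0.0806 in edgeR). TGM1, the keratinocyte transglutaminase, rose by 1.06 ± 0.30 on that scale, close to the threshold (adjusted p = 0.0434 in edgeR). Its reads were few, at 24, 20 and 29 in PD-L1 dishes 1 to 3 and 11, 12 and 15 in Vector dishes 1 to 3. Vector dish 1, at 0.506 CPM, lay under the filter's 0.516 CPM, which every PD-L1 dish exceeded. IVL and LORICRIN had 14 and 7 reads in total, and 4 markers, SPRR1A, SPRR1B, CALML3 and CALML5, had 0. The sum of this list was 32.1 to 49.1 CPM in PD-L1 dishes and 55.7 to 69.0 CPM in Vector dishes, most of it SFN, and its part in the keratin levels was not tested. The astrocyte markers summed to 668 to 694 CPM in PD-L1 dishes and 680 to 724 CPM in Vector dishes, with 4 of 7 tested genes lower and 0 higher (7.2% lower over all genes tested). GJA1, SOX9 and GFAP had log2 fold changes of -0.29, -0.86 and -0.91, the mean CPM of FABP7 in PD-L1 dishes was 50.3% of that in Vector dishes, and GLUL (glutamine synthetase), the most abundant, had 0.12. Fibroblast markers, which mesenchymal glioma cells also express, summed to 474 to 589 CPM in PD-L1 dishes and 979 to 1500 CPM in Vector dishes, with 7 of 8 lower and 0 higher (7.2% lower over all genes tested). COL1A1 and COL1A2, the most abundant, had log2 fold changes of -1.30 and -1.14. THY1, PDGFRA, PDGFRB and FAP were also called lower, at -1.10, -0.79, -1.39 and -1.41. DCN was called lower as well, with 1, 2 and 3 reads in PD-L1 dishes 1 to 3 and 36, 14 and 17 in Vector dishes. Its PD-L1 counts lie at or under the floor of 3, and DCN passed the filter through the Vector dishes alone, so no fold is given. The part of the difference in fibroblast markers in the keratin levels was not tested.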

How the data were processed

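Poly-A RNA of 6 dishes was sequenced from NEBNext Ultra libraries, per the labels' protocols, with 3 µg of total RNA per dish. The submitters' processing notes name CASAVA 1.8, STAR 2.5.1b, HTSeq 0.6.0 and the build hg19; annotation, strand setting and the handling of multi-mapped reads are not given in the material used here. Raw counts as deposited, whole numbers for each Ensembl gene and dish, were analysed. A normalized table of the same dishes was not used here.

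Symbols, biotypes, transcript lengths and shared windows came from a gene name table and GENCODE 29. GENCODE 29 is on another build, so no gene coordinates are given. Identity was computed on mafft alignments of coding sequences. The aligned sequences are not reported here.

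Counts were filtered with filterByExpr, scaled with TMM and fitted with edgeR 4.0.16 (robust glmQLFit, glmQLFTest, no covariates) in R 4.3.3 on all genes, with Benjamini-Hochberg adjustment. Standard errors came from the fold change and F. CPM use TMM scaling, and per-kilobase values divide by the longest principal transcript. The fit was tested on simulated counts. Alternatives used DESeq2 1.42.0 and limma 3.58.1 among others.

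All tested keratins were named, untested ones from 10 reads, and of each list the called and the 2 most abundant members; others were chosen after their values were seen. The members and lists were chosen with earlier results of these data known. EPPK1 and NEFL were not analysed here. No 2 dishes agreed within sampling noise (chi-square per degree of freedom 2.84 to 14.6 within groups).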

Additional observations from a re-analysis of the deposited data

How the results depend on the processing

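The count of keratins called lower was 9 in edgeR and stayed between 6 and 12 under every alternative run, with 0 called higher in each. KRT81 missed the threshold without a low-count filter (adjusted p = 0.278), KRT75 passed with limma-voom (0.0123), and at an FDR of 0.01 6 keratins were lower. The sign of KRT5 turned without Vector dish 2 (log2 fold change 0.12, against -2.31 without PD-L1 dish 1), and no other tested keratin changed sign. The summed keratin level in PD-L1 dishes was 56.4% of that in Vector dishes, and moved by less than the spread between dishes in the alternatives run. With at least 10 reads in total as the limit, 28 keratins counted as detected in place of 47. Over all genes, 1139 were lower and 245 higher. At an FDR of 0.01 these were 508 and 22, with upper-quartile scaling 379 were higher, and with an offset for GC content and length 691 were higher. Leaving out 1 dish gave 510 to 2241 lower and 35 to 1271 higher genes. In the 4 lists of keratin-related genes together 17 genes were lower, against 10 at an FDR of 0.01 and 11 to 21 with 1 dish left out. Deviations from the group mean correlated at -0.212, -0.051 and -0.192 for same-numbered dishes and at -0.077 to 0.232 for the other pairs. With 3 dishes per group the deviations within a group are tied to one another. These values therefore cannot decide whether the replicate numbers pair the dishes. A fit with the replicate number as a block called 9 keratins lower, and 9 with the offset added. Depth limits the 37 untested keratins, which held at most 60 reads each.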

Other observations

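KRT5 and KRT6C were not alone in being highest in PD-L1 dish 1 and Vector dish 2. Among 18666 genes with at least 20 reads, 13 had levels in both of these dishes that were at least 2 times the highest level in the other 4 dishes, a search made after the values of KRT5 were seen. PKP1 (plakophilin-1, a desmosomal plaque protein of stratified epithelia) had 18, 2 and 3 reads in PD-L1 dishes 1 to 3 and 2, 28 and 1 in Vector dishes 1 to 3. S100A8, a calcium-binding protein of myeloid cells and of stressed epidermis, had 12, 2 and 0 reads in PD-L1 dishes and 0, 9 and 0 in Vector dishes. Its partner S100A9 had 9, 1 and 1 reads in PD-L1 dishes and 3, 11 and 2 in Vector dishes. CDCP1, an epithelial surface protein, had 9, 1 and 1 reads in PD-L1 dishes and 3, 12 and 0 in Vector dishes. The membrane mucin MUC17 had 9, 0 and 0 reads in PD-L1 dishes and 0, 11 and 0 in Vector dishes. The 13 genes also included CDH26, LINC00319 and several genes without a symbol. KRT5 was the most abundant of the 13 genes, and the others had at most 77 reads in total. No other pair of dishes was searched, so how many genes such a search finds in any pair is not known. KRT14 and KRT6A, by contrast, followed the groups.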
